A study of Mus musculus with 64 samples.

Results

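The effect of a cardiac troponin T transgene on the heart transcriptome of female mice that had completed treadmill training is described here across all genes tested. The comparison uses 16 of the 64 libraries of the series, namely the 6 from trained transgenic females (TG) and the 10 from trained non-transgenic females (nTG), and each was chosen by its sample title. All mice were of the C57BL/6J strain, and TG mice carry cTnT-delta160E, a troponin T with a deleted glutamate that is used to model hypertrophic cardiomyopathy. The promoter that drives the transgene and the age of the mice are not given in the sources used here. Both groups ran for 6 weeks, on 3 days a week, in sessions of 31 minutes that alternated 4 faster intervals (85%) with 4 slower ones (50%), set relative to a group average speed from a graded run. Both arms share this schedule, and the speeds they ran at are not given in the sources used here. The rest of the series consists of sedentary females (8 TG and 8 nTG) and of trained (8 TG and 8 nTG) and sedentary males, all profiled by bulk sequencing of rRNA-depleted heart RNA. Libraries are labelled as biological replicates, and the labels' protocol gives 7 to 9 samples per group where the titles give 6 and 10 here.

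The gene table and the long non-coding RNA (lncRNA) table of the series carry the same library names in different orders, so each lncRNA column, taken as correctly named, was given the gene column that correlated with it best. Over 389 autosomal transcripts found in both tables, all 64 pairs were each other's best match, and only 1 pair had the same name. In the 16 libraries used here the best r was 0.69 to 0.863, and the next best gene column reached at most 0.404. Taken by name instead, 13 of the 16 gene columns contradicted their label, 8 by low Xist (the transcript that marks female cells) and 9 by the level of Tnnt2. After the match, 0 of 16 contradicted the labels, with Xist at 242 to 429 CPM (a gene's counts scaled to library size). Every value below uses matched columns, and a call means an adjusted p under 0.05 in edgeR's quasi-likelihood test over 16913 genes. No gene checks the training label. Gene totals were 43.4 to 59.8 M counts in TG and 36.6 to 60.3 M in nTG.

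Cardiac troponin T anchors the troponin complex to tropomyosin on the thin filament, where calcium binding to troponin C releases the filament for contraction. Mutations in it are known to change the calcium sensitivity and the energy cost of contraction. The heart covers that cost largely by oxidising fatty acids, with glucose, lactate, ketones and branched-chain amino acids as further fuels.

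The library labelled TG trained female replicate 3 stood apart from the other TG libraries. Its 12 lymphocyte markers summed to 37.2 CPM against 11.2 to 15.2 CPM in the other 5, its 19 macrophage markers to 573 CPM against 390 to 481 CPM, and its 17 cardiomyocyte markers to 123700 CPM against 131600 to 137800 CPM. Without it 1986 genes were called instead of 2503, and 19 of 124 named genes besides Tnnt2 were not called. The fall in calls was not particular to it, with 1922 called without TG replicate 4 and 2004 without TG replicate 5.

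In trained females 2503 of 16913 genes were called (14.8%), of which 908 were higher in TG (5.37% of the genes tested) and 1595 lower (9.43%). Most differences were small. The median log2 fold change was 0.41 among the genes that rose and −0.22 among those that fell, and 46 rose while 27 fell by a log2 fold change of at least 1 (a doubling or halving). The genes that rose were at a median of 5.75 CPM, those that fell at 50.7 CPM and those not called at 7.25 CPM. In 89 genes every TG library lay above every nTG library (0.526% of genes tested), and in 345 every TG library lay below (2.04%). The split between higher and lower depends on scaling. With upper-quartile scaling, which moved the median log2 fold change of all genes from 0.002 to 0.039, 1313 genes were called higher and 1045 lower, so that 55.7% of calls were higher instead of 36.3%. Among the 46 genes with the larger rises was Y-linked Eif2s3y, named after its values were seen, which reached at most 0.402 CPM in any of the 16 libraries.

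**Figure D1:**
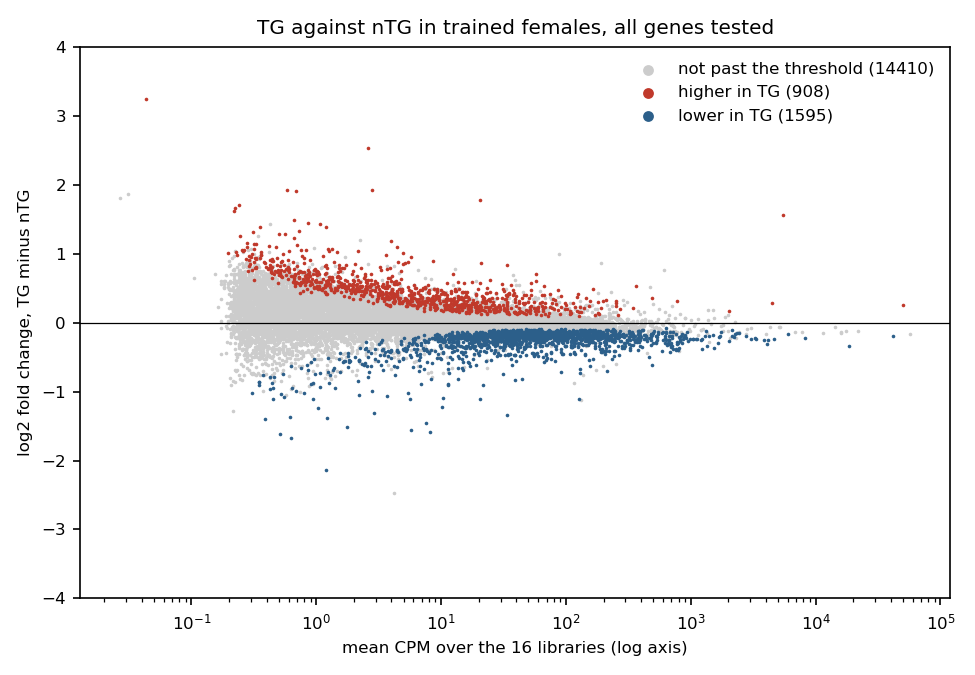
Mean CPM over the 16 libraries (log axis) against the log2 fold change, TG minus nTG, for each gene tested; red points were called higher, blue points lower, grey points were not called. The 1595 genes that fell lie mostly at higher levels than the 908 that rose, whose median level is near that of genes not called. Tnnt2 is the red point near 1.57 at the right.

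Tnnt2 (ENSMUSG00000026414, chromosome 1, 135836354 to 135852260 in GRCm38, GENCODE M21), the targeted gene, had the smallest p of all genes. Its level in TG libraries 1 to 6 was 11721, 9469, 8004, 8508, 9399 and 8739 CPM. In nTG libraries 1 to 10 it was 3209, 2811, 3220, 3107, 3168, 3390, 3124, 3129, 3253 and 2968 CPM. Every TG library lay above every nTG library, and TG replicate 1 was the highest. The mean was 9307 ± 1305 CPM (SD, n = 6) in TG and 3138 ± 159 CPM (SD, n = 10) in nTG, a ratio of 2.97 and a log2 fold change of 1.57 ± 0.07 (SE, adjusted p by edgeR 1.63e-28). Reads of the transgene and of the endogenous gene are counted together in this row.

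After Tnnt2, the genes that rose with the smallest p were Epdr1, Mafg, Thap1, Myl1, Trim35, Gcnt1, Camk2b, Ppp2r2c, Celsr1, Nos1, Cdh4, Bend6, Jak1 and Myo5a. Epdr1 (ENSMUSG00000002808) encodes a lysosomal ependymin-related protein. It was at 30.7, 30.9, 28.7, 25.4, 30.6 and 28.7 CPM in TG libraries 1 to 6. In nTG libraries 1 to 10 it was at 16.2, 18.2, 14.4, 15.1, 15.5, 16.6, 16.5, 17.1, 14.4 and 15.7 CPM. The groups did not overlap, and the log2 fold change was 0.87 ± 0.07 (SE, adjusted p by edgeR 1.68e-14).

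Mafg (ENSMUSG00000051510), a small Maf protein that pairs with NRF2 and BACH1 on antioxidant response elements, was at 79.6, 72.6, 74.1, 63.2, 75.07 and 74.97 CPM in TG libraries 1 to 6. In nTG libraries 1 to 10 it was at 44.8, 47.1, 49.9, 47.4, 49, 45.3, 49.8, 51.2, 48.3 and 50.0 CPM. All TG libraries were above all nTG libraries, a log2 fold change of 0.60 ± 0.06 (SE, adjusted p by edgeR 2.53e-12). Thap1, a zinc finger transcription factor, was at 5.68 to 7.79 CPM in TG and 3.25 to 4.29 CPM in nTG, with no overlap.

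Besides Tnnt2, the named genes with large rises included several at low levels in nTG hearts. Nos1 (ENSMUSG00000029361), the neuronal nitric oxide synthase, which acts near the sarcoplasmic reticulum in cardiac muscle, was at 2.65 CPM at the lowest, 5.07 at the median and 9.6 at the highest in TG, against 0.555, 0.695 and 2.81 CPM in nTG. It overlapped between the groups only through nTG replicate 2, the highest nTG library, and rose by a log2 fold change of 2.54 ± 0.37 (SE, adjusted p by edgeR 1.73e-06). Ppp2r2c, a regulatory subunit of protein phosphatase 2A, ranged from 3.53 to 7.78 CPM in TG (median 4.78) and from 0.773 to 2.03 CPM in nTG (median 1.4). That is a log2 fold change of 1.93 ± 0.26 with no overlap. Myl1 (ENSMUSG00000061816), the alkali myosin light chain of fast skeletal muscle, ranged from 24.96 to 45.7 CPM in TG (median 38.2) and from 7.67 to 16.1 CPM in nTG (median 9.81), also without overlap. Its log2 fold change was 1.79 ± 0.19. Oprd1, the delta opioid receptor, rose by 1.43 ± 0.24 and Gcnt1, a glycosyltransferase that branches O-glycans, by 1.01 ± 0.13. Camk2b, the beta isoform of calmodulin-dependent kinase II, rose by 0.61 ± 0.08, from 18.2 to 23.9 CPM in nTG to 26.9 to 35.7 CPM in TG. Jak1, a cytokine receptor kinase, rose by 0.31 ± 0.05 from a higher level, with 172 to 191 CPM in nTG and 194 to 243 CPM in TG.

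The genes that fell with the smallest p were Pcp4l1, Acad11, Fah, Mrpl18, Pfkfb1, Ttc7, Miga1, Fitm2, Cryab, Acot7, Popdc2, Limch1, Entpd5, Ablim1 and Fig4. Pcp4l1 (ENSMUSG00000038370) is related to the calmodulin-binding protein PCP4. It was at 127.5, 120.2, 112.1, 123.2, 117.9 and 101.0 CPM in TG libraries 1 to 6. In nTG libraries 1 to 10 it was at 198.2, 160.5, 199.5, 170.6, 169.9, 191.5, 179.1, 171.9, 187.9 and 179.1 CPM. No libraries overlapped, and the log2 fold change was −0.63 ± 0.07 (SE, adjusted p by edgeR 5.68e-10).

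Acad11 (ENSMUSG00000090150), an acyl-CoA dehydrogenase, was at 134, 140, 128, 121, 122 and 129 CPM in TG libraries 1 to 6. In nTG libraries 1 to 10 it was at 192, 203, 172, 182, 172, 209, 173, 181, 187 and 189 CPM. Again no libraries overlapped, with a log2 fold change of −0.53 ± 0.06 (SE, adjusted p by edgeR 7.19e-09). Fah (ENSMUSG00000030630), the last enzyme of tyrosine breakdown, was at 10.2, 9.47, 8.67, 8.91, 9.18 and 8.62 CPM in TG libraries 1 to 6. In nTG libraries 1 to 10 it was at 17.9, 16.6, 16.5, 13.5, 11.5, 19.1, 19.1, 13.8, 17.9 and 16.02 CPM, all above the TG libraries, and the log2 fold change was −0.82 ± 0.10.

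Among the larger falls, Scd4, a stearoyl-CoA desaturase, changed by −1.59 ± 0.24, from a median of 10.1 CPM in nTG to 3.01 CPM in TG, and its groups overlapped. Pfkfb1, which makes and degrades the glycolytic regulator fructose 2,6-bisphosphate, was at 1.71 to 2.94 CPM in TG (median 2.76) and 4.44 to 9.34 CPM in nTG (median 8.02). It did not overlap between groups and had a log2 fold change of −1.56 ± 0.20. Cacng6, a calcium channel gamma subunit, changed by −1.51 ± 0.30, with 0.49 to 1.33 CPM in TG and 1.51 to 3.09 CPM in nTG. Popdc2, a cAMP-binding membrane protein of the heart, was at 312 to 386 CPM in TG and 488 to 548 CPM in nTG, a log2 fold change of −0.49 ± 0.07.

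**Figure D2:**
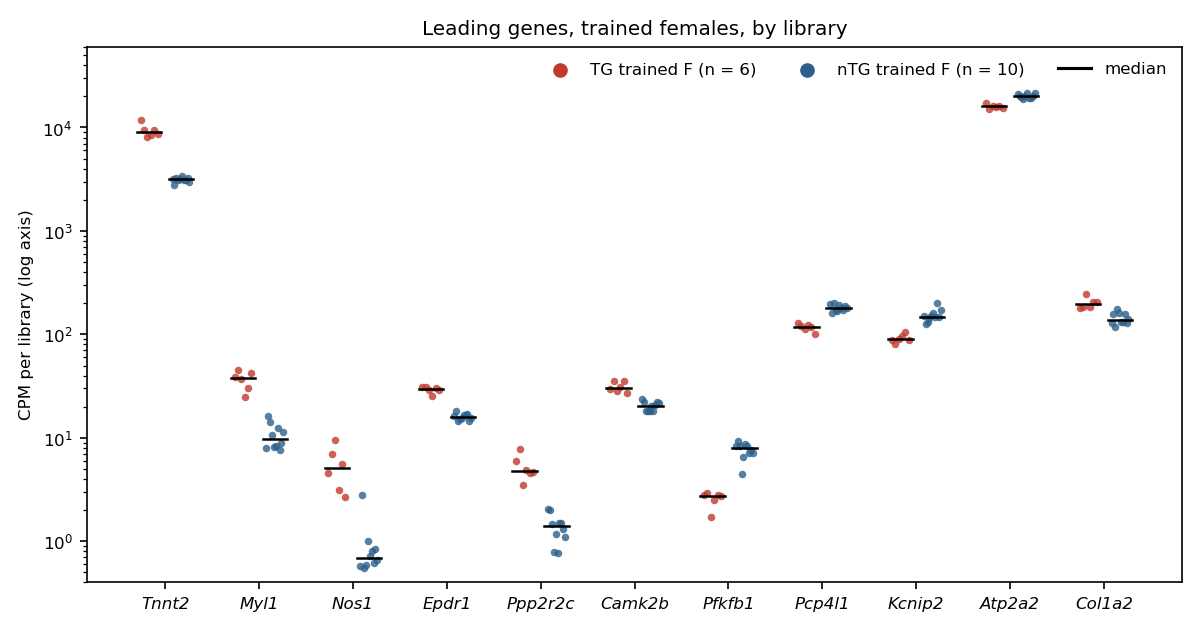
CPM in each library (log axis) of genes that led the comparison or their list; red points are the 6 TG libraries, blue points the 10 nTG libraries and black lines the medians. Nos1 is the gene shown whose groups overlap, through nTG replicate 2, and the Tnnt2 groups are about 3138 and 9307 CPM on average.

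Most genes of fatty acid use fell. Of 42 members tested, 30 were lower and 0 higher (9.43% and 5.37% of all genes), and the median log2 fold change was −0.27, against 0.002 over all genes. The 3 members with the smallest p handle stored fat. Dgat2, which makes triglyceride, was at 204 to 230 CPM in TG (median 214) and 231 to 354 CPM in nTG (median 303), without overlap and with a log2 fold change of −0.47 ± 0.07. Pnpla2, the triglyceride lipase ATGL, was at 266 to 364 CPM in TG and 351 to 475 CPM in nTG, a change of −0.40 ± 0.07. Lipe, hormone-sensitive lipase, was at 40.6 to 53.4 CPM in TG and 47.1 to 79.5 CPM in nTG, a change of −0.46 ± 0.08, with both groups sharing part of the range. Named for their roles after the values were seen, Hadha, a subunit of the mitochondrial trifunctional protein, changed by −0.34 ± 0.06 and Cpt1b, the muscle carnitine palmitoyltransferase that admits fatty acids to mitochondria, by −0.26 ± 0.05. Cd36, the fatty acid translocase, was at 592 to 804 CPM in TG and 686 to 813 CPM in nTG and was not called (−0.17 ± 0.07, edgeR adjusted p 0.0992).

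The lists for the next steps of fuel oxidation leaned the same way. The shares to set beside these and all later list counts are 9.43% lower and 5.37% higher of all genes. In pyruvate oxidation and the tricarboxylic acid cycle 22 of 32 members were lower and 0 higher, with a median of −0.21. Cs, citrate synthase, was at 1058 to 1113 CPM in TG and 1186 to 1429 CPM in nTG, without overlap and with a change of −0.25 ± 0.05. Dlat, the acetyltransferase of pyruvate dehydrogenase, changed by −0.23 ± 0.04 and Idh2, mitochondrial isocitrate dehydrogenase, by −0.37 ± 0.07. In branched-chain amino acid and ketone use 18 of 25 were lower and 0 higher, with a median of −0.24. Ivd, isovaleryl-CoA dehydrogenase, was at 264 to 293 CPM in TG and 298 to 417 CPM in nTG, a change of −0.40 ± 0.07. Mccc2, a subunit of methylcrotonyl-CoA carboxylase, changed by −0.36 ± 0.06 and Aldh6a1, of valine breakdown, by −0.41 ± 0.07, and neither overlapped between groups.

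In glucose uptake, glycolysis and glycogen 13 of 32 members were lower and 1 higher, with a median of −0.12. Pfkm, the muscle phosphofructokinase, fell from 883 to 1089 CPM in nTG to 780 to 880 CPM in TG (−0.26 ± 0.04). The member that rose was Pfkp, the platelet-type phosphofructokinase, from 40.3 to 53.1 CPM in nTG to 61.8 to 75.7 CPM in TG, a change of 0.58 ± 0.10, so that subunits of the same enzyme moved in opposite directions. Slc2a4, the insulin-responsive glucose transporter GLUT4, changed by −0.27 ± 0.06. The direction of these lists was the same under each scaling tried.

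Nuclear genes of the respiratory chain were counted in a pair of lists. In complex I 20 of 36 subunits were lower and 1 higher, with a median of −0.17. Ndufa10, an accessory subunit, was at 325 to 361 CPM in TG and 378 to 450 CPM in nTG, with no overlap (−0.25 ± 0.05). Ndufb4 was the subunit that rose, from 33.7 to 53.9 CPM in nTG to 50.4 to 59.7 CPM in TG (0.41 ± 0.07), with 4 of the 6 TG libraries above all nTG libraries. In complexes III and IV and ATP synthase 15 of 39 were lower and 0 higher, with a median of −0.16, led by Atp5b, the catalytic beta subunit of ATP synthase (−0.25 ± 0.05, 3523 to 3854 CPM against 3864 to 4750 CPM). These counts were sensitive to single libraries and to scaling. Complex I had 11 lower without TG replicate 3 or without TG replicate 4 and 10 with upper-quartile scaling, and the other complexes had 9 without TG replicate 3, 8 without TG replicate 4, 9 without TG replicate 5, 8 with upper-quartile scaling and 25 with limma voom.

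None of 15 mitochondrially encoded genes was called (1 was lower without nTG replicate 2 or TG replicate 2, in the 16 libraries alone and with limma voom), with a median of −0.13, and these genes held 14.9% to 17.6% of counts in TG and 16.1% to 17.1% in nTG. Of 30 genes of mitochondrial biogenesis, dynamics and creatine kinase 12 were lower and 0 higher. Mfn2, which fuses outer mitochondrial membranes, was at 847 to 1011 CPM in TG and 1030 to 1185 CPM in nTG, without overlap (−0.24 ± 0.04). Esrrb, an oestrogen-related receptor, changed by −0.35 ± 0.06 and Sirt3, a mitochondrial deacetylase, by −0.28 ± 0.06. Ppargc1a, the coactivator PGC-1alpha, which was looked up after the values were seen, was at 114 to 154 CPM in TG and 115 to 155 CPM in nTG and was not called (edgeR adjusted p 0.15).

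Of the 17 cardiomyocyte markers 9 were lower and 1 higher, with a median of −0.16, and their summed level was 123700 to 137800 CPM in TG and 130000 to 140600 CPM in nTG, so the sums overlapped. The sum includes Ttn, the member that rose. The mean of the members on the log2(CPM + 0.5) scale, set against the nTG mean, was −0.20 to −0.08 in TG and −0.11 to 0.07 in nTG, with nTG replicate 4 as the 1 nTG library within the TG range. In bulk tissue fewer cells of a type and less RNA of a gene per cell cannot be told apart, and the part of the marker level in the falls of metabolic genes was not tested.

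A part of the genes of electrical activity and calcium handling fell in TG. Of 22 potassium channel genes 12 fell and 0 rose, with a median of −0.20. Kcnip2, the subunit KChIP2 that sets the transient outward current, was at 80.1 CPM at the lowest, 89.5 at the median and 106 at the highest in TG, against 125, 149 and 201 CPM in nTG. All TG libraries were below all nTG libraries, with a log2 fold change of −0.73 ± 0.10 (SE, adjusted p by edgeR 7.23e-07). Abcc9, the sulphonylurea receptor of ATP-sensitive potassium channels, was at 448 to 552 CPM in TG and 605 to 702 CPM in nTG (−0.40 ± 0.06). Kcnh2, the channel of the rapid delayed rectifier current, was at 106 to 118 CPM in TG and 122 to 166 CPM in nTG (−0.40 ± 0.07). Neither overlapped between groups.

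In the list of sodium channels, connexins and conduction genes 7 of 19 were lower and 1 higher, with a median of −0.26. Scn10a changed by −0.85 ± 0.20 from a median of 2.69 CPM in nTG to 1.41 CPM in TG, and Irx3, a transcription factor of the ventricular conduction system, by −0.54 ± 0.13. The number lower was 4 without TG replicate 4, without TG replicate 6 or with upper-quartile scaling.

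In calcium cycling 8 of 21 genes were lower and 0 higher, with a median of −0.16. Atp2a2, the SERCA2 pump that refills the sarcoplasmic reticulum, was at 14933 CPM at the lowest, 15993 at the median and 17144 at the highest in TG, against 18918, 19992 and 21713 CPM in nTG. Every TG library lay below every nTG library, a log2 fold change of −0.34 ± 0.06 (SE, adjusted p by edgeR 2.72e-05). Hrc, which binds calcium in that store, was at 535 to 669 CPM in TG and 714 to 863 CPM in nTG (−0.39 ± 0.07). Srl, sarcalumenin, changed by −0.24 ± 0.05. Looked up after their values were seen, Pln, phospholamban, which inhibits SERCA2, was at 1665 to 2508 CPM in TG and 2031 to 2443 CPM in nTG and was not called (edgeR adjusted p 0.0696), and Ryr2, the calcium release channel, was not called either (−0.07 ± 0.06).

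In the list of beta-adrenergic and cAMP signalling 8 of 21 genes were lower and 0 higher, and the members with the smallest p were not beta receptors. Adra1b, an alpha-1 adrenergic receptor, was at 23.8 to 33.6 CPM in TG and 33.6 to 44.5 CPM in nTG, with 5 of 6 TG libraries below all nTG libraries (−0.52 ± 0.10). Pde3a, a phosphodiesterase, was at 151 to 178 CPM in TG and 179 to 242 CPM in nTG with no overlap (−0.39 ± 0.07), and Prkaca, the catalytic subunit of protein kinase A, changed by −0.24 ± 0.04. The 5 of 23 calcineurin and hypertrophy genes that fell were Hopx (−0.45 ± 0.09), Myocd (−0.33 ± 0.07), Rcan2 (−0.18 ± 0.04), Hdac5 and Gata4, and 0 rose.

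Of 17 sarcomere filament genes 7 were lower and 2 higher, Tnnt2 among the latter, with a median of −0.14. Tmod1, which caps thin filaments, was at 260 to 293 CPM in TG and 310 to 354 CPM in nTG, without overlap (−0.26 ± 0.04). Tpm1, alpha-tropomyosin, the partner of troponin T on the filament, was at 3716 to 4849 CPM in TG and 4646 to 5146 CPM in nTG (−0.23 ± 0.04), and 5 of the 6 TG libraries were below all nTG libraries. Mybpc3, cardiac myosin-binding protein C, changed by −0.24 ± 0.06. Ttn, titin, the molecular spring of the sarcomere, was the other member that rose, from 44243 to 49341 CPM in nTG to 48391 to 64232 CPM in TG (0.25 ± 0.06), with 5 of 6 TG libraries above all nTG libraries.

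In the Z-disc and costamere list 8 of 25 were lower and 1 higher, beside 9.43% lower and 5.37% higher of all genes. Cryab, the small heat shock protein alphaB-crystallin, was at 566 to 628 CPM in TG and 688 to 821 CPM in nTG, without overlap (−0.35 ± 0.05). Fhl2, a LIM protein bound to titin, changed by −0.40 ± 0.07, and Ldb3, the Z-disc protein ZASP, by −0.24 ± 0.05. Dmd, dystrophin, was the member that rose (0.20 ± 0.06), and it was not called without TG replicate 2 (edgeR adjusted p 0.0622) or TG replicate 6 (adjusted p 0.148). The number higher was 2 without nTG replicate 2, nTG replicate 4, TG replicate 1 or TG replicate 5, and 4 in the 16 libraries alone. The number lower was 5 without TG replicate 4 or TG replicate 6 and 4 with upper-quartile scaling.

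Of 104 genes named by the rule with a RefSeq promoter (GRCm38.p6), 4 held a MEF2 site on either strand in the 250 bases before the start, and they are shown because MEF2 factors are classical regulators of muscle genes and because these genes moved in both directions. In capitals is each MEF2 site, searched by that name on both strands. The CArG box, a pattern rich in A and T that can share such bases, occurs in the window of Dmd and not in the other 3. Limch1 (chr5:66745639-66745888, plus strand) and Mybpc3 (chr2:91117894-91118143, plus strand) were lower in TG, whereas Ttn (chr2:76982548-76982797, minus strand) and Dmd (chrX:82948620-82948869, plus strand) were higher.
Limch1: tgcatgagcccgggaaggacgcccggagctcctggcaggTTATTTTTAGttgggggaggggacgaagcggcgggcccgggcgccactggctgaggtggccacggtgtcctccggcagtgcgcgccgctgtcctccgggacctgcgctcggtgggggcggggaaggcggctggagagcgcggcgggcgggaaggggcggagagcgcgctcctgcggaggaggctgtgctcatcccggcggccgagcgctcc
Mybpc3: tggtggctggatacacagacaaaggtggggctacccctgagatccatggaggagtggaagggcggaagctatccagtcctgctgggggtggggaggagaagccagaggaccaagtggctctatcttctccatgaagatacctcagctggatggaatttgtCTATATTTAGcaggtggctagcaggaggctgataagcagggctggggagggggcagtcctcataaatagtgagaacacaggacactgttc
Ttn: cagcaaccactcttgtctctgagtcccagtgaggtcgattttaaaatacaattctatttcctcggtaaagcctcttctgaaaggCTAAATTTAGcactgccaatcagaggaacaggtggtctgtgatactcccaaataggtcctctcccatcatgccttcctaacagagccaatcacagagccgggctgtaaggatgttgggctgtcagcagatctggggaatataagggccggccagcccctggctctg
Dmd: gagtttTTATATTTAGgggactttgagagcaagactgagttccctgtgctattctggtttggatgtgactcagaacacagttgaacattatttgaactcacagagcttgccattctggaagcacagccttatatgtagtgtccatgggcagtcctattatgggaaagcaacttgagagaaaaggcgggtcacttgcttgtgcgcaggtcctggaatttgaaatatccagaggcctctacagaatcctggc
A MEF2 site was present in that window for 2.25% of 1247 promoters of genes lower in TG, 0.853% of 586 of genes higher in TG and 1.3% of all 11474 with a sequence. It was 1 of 6 patterns searched on both strands of the whole sequences, which run from 250 bases before to 50 after the start. There the MEF2 site was in 2.49% of promoters of lower genes, 1.19% of higher genes and 1.39% of all. In the same order the MCAT element CATTCC was in 13%, 11.9% and 12.3%, the E-box CACGTG in 10.4%, 9.56% and 9.97%, and the GATA motif AGATAA in 6.34%, 7.17% and 6.65%. The CArG box was in 1.52%, 1.71% and 1.29%, and the oestrogen-related receptor element TCAAGGTCA in 0.401%, 0.512% and 0.279%. These shares describe matches to a pattern and were not tested.

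Several isoforms of skeletal muscle rose. Of 19 listed, 9 were in the table, and 5 of these were higher and 1 lower, with a median of 0.83. The sum of the 9 did not rise, at 759 to 819 CPM in TG (median 792) and 742 to 853 CPM in nTG (median 813). Besides Myl1, Mybpc2, the fast myosin-binding protein C, was at 35.2 to 57.3 CPM in TG (median 46.6) and 18.5 to 39.1 CPM in nTG (median 25.02), a change of 0.83 ± 0.15 with 5 of 6 TG libraries above all nTG libraries. Tnni2, fast skeletal troponin I, rose by 0.97 ± 0.27 between medians of 0.533 CPM in nTG and 1.11 CPM in TG. The other members that rose were Ryr1, the skeletal calcium release channel (0.95 ± 0.29), and Casq1, the fast calsequestrin (0.88 ± 0.30). Cacna1s, the skeletal L-type channel, was the member that fell (−0.57 ± 0.14).

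None of 15 classical stress and fetal genes was called in the fit of all 64 libraries, 9 were above 0 and 6 below, and the median was 0.20. Their sum was 2913 to 4308 CPM in TG (median 3607) and 2401 to 3034 CPM in nTG (median 2653). The number higher was 7 in the 16 libraries alone, 5 in the 32 female libraries, 6 with library number as a covariate, 4 with the replicate block or limma voom, and 1 with upper-quartile scaling or among genes with a mean of 50 counts or more. It was 2 without nTG replicate 2 and 1 without nTG replicate 4, TG replicate 1 or TG replicate 5. Those named here were chosen after their values were seen, Myl7 as the lowest and the others because the list is known for them. Nppa had the largest rise of the list. Nppa, atrial natriuretic peptide, was at 86.1 to 198 CPM in TG (median 117) and 33.5 to 140 CPM in nTG (median 55.9), a log2 fold change of 0.99 ± 0.45 (SE, adjusted p by edgeR 0.125). Acta1, skeletal actin, was at 170 to 424 CPM in TG and 83.7 to 353 CPM in nTG (0.87 ± 0.35, edgeR adjusted p 0.0775). Myh7, the slow myosin heavy chain, was at 575 to 1360 CPM in TG and 153 to 827 CPM in nTG (0.77 ± 0.37, edgeR adjusted p 0.149). Nppb, B-type natriuretic peptide, was at 50.2 to 136 CPM in TG and 39.9 to 110 CPM in nTG (0.38 ± 0.25, edgeR adjusted p 0.325). Ankrd1, a cardiac ankyrin repeat protein, was at 417 to 826 CPM in TG and 309 to 564 CPM in nTG (0.52 ± 0.19, edgeR adjusted p 0.056). Myl7, the atrial regulatory myosin light chain, changed by −0.73 ± 0.98 (edgeR adjusted p 0.668). The groups overlapped for Nppa, Acta1 and Myh7, and the SE of each was several times that of the metabolic genes. Of 14 atrial markers 0 were higher and 3 (Kcnj3, Kcnk3 and Tbx5) lower, 21.4% of the list beside 9.43% of all genes. Their sum was 1425 to 1667 CPM in TG and 1516 to 1998 CPM in nTG, and their part in the spread of Nppa was not tested.

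A part of the extracellular matrix genes rose. Of 15 fibrillar and associated collagens 7 were higher and 0 lower, with a median of 0.40 and all 15 above 0. Col1a2, a chain of type I collagen, was at 179 to 247 CPM in TG (median 196) and 119 to 178 CPM in nTG (median 137), without overlap (0.49 ± 0.14, edgeR adjusted p 0.0109). Col6a3, a chain of type VI collagen, was at 144 to 155 CPM in TG and 94.6 to 129 CPM in nTG, also without overlap (0.42 ± 0.11). Col1a1, named after its values were seen, was at 184 to 253 CPM in TG and 130.5 to 203 CPM in nTG and was not called (0.43 ± 0.16, edgeR adjusted p 0.0606). The number of collagens higher was 2 without TG replicate 3 or without nTG replicate 1, 3 without nTG replicate 3, nTG replicate 6 or TG replicate 4, 4 without nTG replicate 9, TG replicate 5 or TG replicate 6, and 12 in a fit of the 16 libraries alone, while the median stayed between 0.36 and 0.44 over the left-out TG libraries and the scalings.

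Of 38 profibrotic and matricellular genes 8 were higher and 0 lower, with a median of 0.28. Mmp2, a gelatinase, was at 90.4 to 138 CPM in TG and 65.2 to 85.4 CPM in nTG, without overlap (0.48 ± 0.14), and it was not called without TG replicate 3 (0.40, edgeR adjusted p 0.066). Lum, lumican, a collagen-binding proteoglycan, rose by 0.48 ± 0.13, and by 0.38 without TG replicate 6 (edgeR adjusted p 0.0552). Tnc, tenascin C, rose by 1.09 ± 0.32, with TG replicate 3 at 14.1 CPM against 3.99 to 6.35 CPM in the other TG libraries, and was not called without it (0.73, edgeR adjusted p 0.132). Without TG replicate 3 the list had 1 member higher, and it had 5 without nTG replicate 1, 3, 6 or 7, 16 with limma voom and 20 in the 16 libraries alone. Of 20 basement membrane genes 8 were higher and 2 lower, led by Lamc1, the laminin gamma-1 chain, at 351 to 422 CPM in TG and 298 to 341 CPM in nTG (0.21 ± 0.05, no overlap). Lamb3, another laminin chain, fell (−0.59 ± 0.14). The number lower was 1 without nTG replicate 1, 9 or 10 or TG replicate 1, 2, 3 or 6. The number higher was 4 without nTG replicate 1, nTG replicate 3, TG replicate 2 or TG replicate 5 and 5 without TG replicate 6.

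A part of the fibroblast markers and most macrophage markers also rose. Of 14 fibroblast markers 5 (Lum, Tcf21, Col1a2, Dcn and Dpt) were higher and 0 lower, and their sum was 2781 to 3237 CPM in TG and 2222 to 3048 CPM in nTG, with nTG replicate 5 as the 1 nTG library within the TG range. Of these 14, 5 are also in the matrix lists, among them the called Lum, Col1a2 and Dcn, so those rises are counted in both places. The count was 3 without TG replicate 3 and 9 without nTG replicate 4. Of 19 macrophage markers 13 were higher and 0 lower, with a median of 0.38 and a sum of 390 to 573 CPM in TG and 305 to 417 CPM in nTG. Without TG replicate 3 there were 7 higher, with a median of 0.33. Blood markers, 8 genes of which 0 were called, summed to 356 to 625 CPM in TG and 591 to 816 CPM in nTG, with TG replicate 3 as the 1 TG library within the nTG range. Their median log2 fold change was −0.57, and the number lower was 6 in the 16 libraries alone and in the 32 trained libraries, 4 in the 32 female libraries, 5 with the replicate block, 6 with library number as a covariate and 3 with limma voom. Of 19 endothelial markers 1 fell (Flt1), 5.3% of the list beside the 9.43% of all genes that were lower. Their sum was 1802 to 2021 CPM in TG and 1937 to 2194 CPM in nTG. None was lower without TG replicate 4 or TG replicate 5, with upper-quartile scaling, in the 16 libraries alone, with library number as a covariate or with the replicate block, where 1 was higher. Of 13 pericyte and smooth muscle markers 2 (Abcc9 and Des) were lower, 15.4% of the list beside 9.43% of all genes, and 0 higher. Their sum was 3419 to 3870 CPM in TG and 3864 to 4428 CPM in nTG. The number lower was 1 without nTG replicate 1, 2, 5, 6, 8, 9 or 10 or without any 1 of the 6 TG libraries. The part of cell content in the matrix and macrophage results was not tested.

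Of 42 interferon and antigen presentation genes 3 were higher (Ifit2, Irf8 and Oas2) and 0 lower, 7.14% of the list beside 5.37% of all genes, with a median of 0.25. Ifit2 rose by 0.49 ± 0.15, and by 0.38 without TG replicate 6 (edgeR adjusted p 0.0984). Oas2 was not called in 12 of the 16 fits that left out 1 library and Irf8 in 8. The list had 0 higher without TG replicate 6, 1 without nTG replicate 3, nTG replicate 9, nTG replicate 10, TG replicate 2 or TG replicate 3, and 5 without nTG replicate 8. No lymphocyte marker of 12 was called, with a median of 0.26. Without TG replicate 3 the median was −0.14 and 1 marker was lower, while 2 were higher without TG replicate 1 and 1 without TG replicate 4 or TG replicate 5. The 4 of 25 immediate early genes that rose were Egr3 (0.98 ± 0.24), Egr2 (0.83 ± 0.26), Ier5 (0.40 ± 0.12) and Fosl2 (0.40 ± 0.13), and none of these was called without TG replicate 3, while 2 of the list were without TG replicate 1 and 7 without TG replicate 6.

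In the list of IGF1, PI3K and mTOR signalling 7 of 29 were lower and 3 higher, beside 9.43% lower and 5.37% higher of all genes. Akt1, a kinase at the centre of insulin and growth factor signalling, was at 204 to 289 CPM in TG and 262 to 331 CPM in nTG (−0.29 ± 0.07), and Akt2 changed by −0.19 ± 0.05. Tsc2, an inhibitor of mTORC1, changed by −0.21 ± 0.06. The members that rose were Igf1 (0.35 ± 0.12), Igfbp4 (0.36 ± 0.12) and Igfbp7 (0.31 ± 0.11), and each was lost in at least 6 of the fits that left out 1 library. Without TG replicate 3 the list had 3 lower and 1 higher. The number higher was 0 without nTG replicate 3, 6 or 9 and 1 without nTG replicate 1, nTG replicate 10 or TG replicate 6.

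In protein quality control 11 of 40 heat shock proteins and chaperones were lower and 1 higher, beside 9.43% lower and 5.37% higher of all genes. Hspa5, the endoplasmic reticulum chaperone BiP, was at 243 to 317 CPM in TG and 302 to 470 CPM in nTG (−0.32 ± 0.09), and Hspb6, a small heat shock protein of muscle, changed by −0.30 ± 0.08. Hspa1b, inducible HSP70, was the member that rose (0.89 ± 0.23), and it was not called without TG replicate 3 (0.52, edgeR adjusted p 0.121). The number higher was 2 without TG replicate 2, 4 or 6. The number lower was 7 without nTG replicate 1, nTG replicate 3 or TG replicate 2, 5 without nTG replicate 6 or TG replicate 4, 4 without TG replicate 6, and 3 without TG replicate 5 or with upper-quartile scaling. Of 35 ubiquitin ligase and autophagy genes 9 were lower and 1 higher (Lamp2, which was lost in 9 of the 16 fits that left out 1 library). Map1lc3b, an LC3 protein of the autophagosome, was at 120 to 132 CPM in TG and 131 to 162 CPM in nTG (−0.26 ± 0.04). For it 5 of 6 TG libraries were below all nTG libraries. Pink1, a kinase of mitochondrial quality control, was at 573 to 696 CPM in TG and 711.5 to 922 CPM in nTG, without overlap (−0.40 ± 0.07), and Ctsd, cathepsin D, changed by −0.24 ± 0.05. No cytosolic ribosomal protein gene of 62 was called, with a median of −0.03. The number lower was 3 without nTG replicate 4, 2 without TG replicate 3, 1 without nTG replicate 2, 7 or 10 or TG replicate 1, 1 in the 32 female or the 32 trained libraries and 6 with limma voom.

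Antioxidant genes split, with 10 of 35 lower and 3 higher, and with 5 lower and 1 higher under the replicate block. Prdx2 and Prdx5, peroxiredoxins, changed by −0.19 ± 0.04 and −0.21 ± 0.05, and Gstm1, a glutathione transferase, was at 162 to 195 CPM in TG and 196 to 244 CPM in nTG, without overlap (−0.26 ± 0.06). Ftl1, ferritin light chain, rose by 0.29 ± 0.07, from 212 to 261 CPM in nTG to 248 to 340 CPM in TG. Hmox1, haem oxygenase 1 (0.51 ± 0.15), and Srxn1, sulfiredoxin (0.30 ± 0.10), also rose, and neither was called without TG replicate 3, which left 1 member higher (edgeR adjusted p 0.183 and 0.193). Of 29 ATF4 targets and related genes 3 were lower (Slc7a1, Aars and Sars) and 1 higher (Ddr2, a collagen receptor, 0.24 ± 0.06), beside 9.43% lower and 5.37% higher of all genes. Slc7a1, a transporter of cationic amino acids, changed by −0.52 ± 0.12. Aars and Sars, which charge tRNAs, changed by −0.13 ± 0.04 and −0.12 ± 0.04. Of the 16 fits that left out 1 library, Sars was not called in 13 and Aars in 3, and the list had 1 lower without TG replicate 4 or TG replicate 6. The number higher was 2 without nTG replicate 1, 2 or 3 or TG replicate 3 or 5 and 3 without TG replicate 4, and upper-quartile scaling gave 3 higher and 1 lower. The 4 of 18 genes related to YAP and TEAD that rose included Vgll2, a TEAD cofactor of skeletal muscle, at 3.92 to 8.68 CPM in TG and 1.02 to 5.26 CPM in nTG (1.19 ± 0.30). The others were Vgll4, Axl and Birc5, which were not called in 3, 5 and 12 of the 16 fits that left out 1 library. The list had 2 higher without nTG replicate 1, 7, 9 or 10 or TG replicate 4, and its median was −0.03, which turned positive with upper-quartile scaling.

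**Figure D3:**
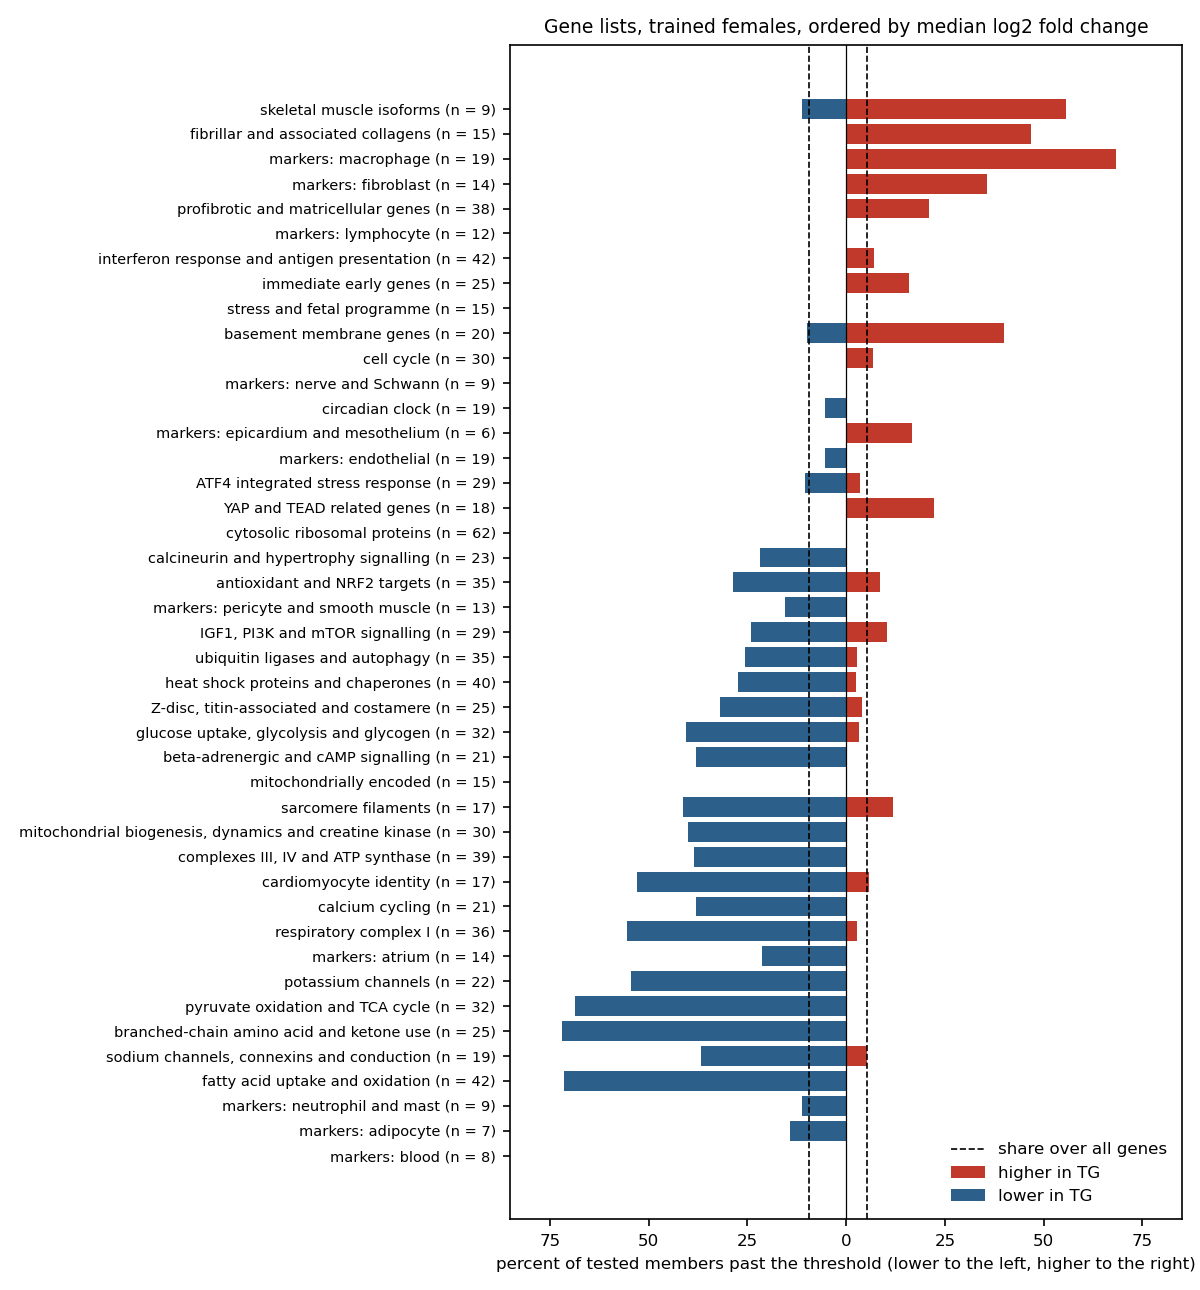
Share of each list's tested members called higher (red, to the right) or lower (blue, to the left) in TG trained females, with dashed lines at the shares over all genes (5.37% higher and 9.43% lower). Lists are ordered by median log2 fold change, from skeletal muscle isoforms and collagens at the top to blood markers at the bottom.

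**Figure D4:**
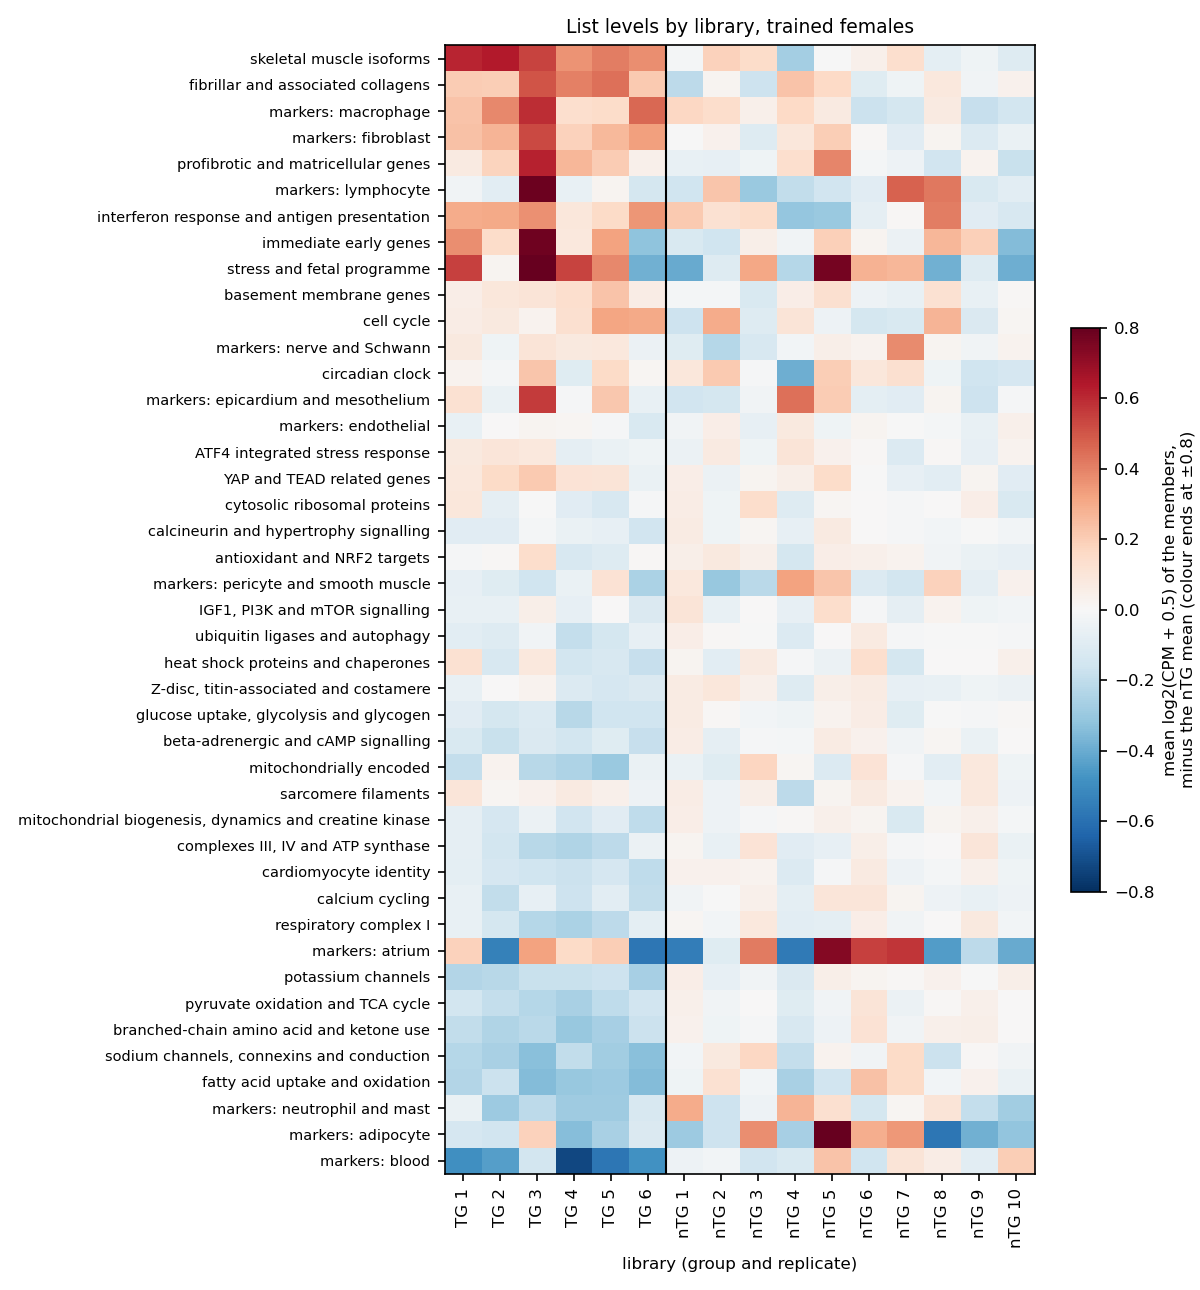
Mean level of each list in every library, as log2(CPM + 0.5) averaged over the members and set against the nTG mean (red higher, blue lower, colours end at ±0.8). The oxidation and potassium channel lists are blue in all 6 TG libraries, nTG replicate 4 is also blue for fatty acid use, TG replicate 3 is the reddest for the lymphocyte, immediate early, collagen and profibrotic lists, and atrial markers vary within both groups.

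Calls were also counted by annotation class, without a test between classes. Of 1011 genes annotated as TEC (transcripts to be experimentally checked, often within introns) 94 were higher and 4 lower, and of 92 sense-intronic genes 11 were higher and 0 lower. Of 13951 protein-coding genes 727 were higher and 1536 lower. Over all genes tested 5.37% were higher and 9.43% lower. The TEC genes summed to 1189 to 1554 CPM in TG (median 1483) and 1117 to 1458 CPM in nTG (median 1251). In sedentary females 0 TEC genes were higher and 1 lower (1.58% and 2.78% of all genes). In trained males 5 were higher and 2 lower (5.65% and 8.31% of all genes). Whether counting used strand is not given in the sources used here, so reads of such genes and of the genes they lie in cannot be told apart.

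The same contrast in sedentary females and in trained males shows how far these differences are shared. Their group means come from other libraries, whereas the spread behind the calls was estimated in 1 fit that includes the 16. In sedentary females 739 genes were called (4.37%; 1.58% higher, 2.78% lower), and 539 of them were called in the same direction in trained females, which is 72.9% of the sedentary calls and 21.5% of the trained calls. No gene was called in opposite directions. Of the 908 genes higher in trained females 783 had the same sign in sedentary females, with a median log2 fold change there of 0.16, and of the 1595 lower 1516 did, with a median of −0.12. In trained males 2361 genes were called (14%; 5.65% higher, 8.31% lower), and 1233 were shared in the same direction, 52.2% of the male and 49.3% of the female calls. The gene called in opposite directions was 4932702P03Rik, an antisense gene under 1.3 CPM in every trained female library, at 0.46 ± 0.16 in trained females and −0.56 ± 0.16 in trained males.

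Genes chosen in trained males gave a description of the females that does not rest on choosing them there. The 956 genes called higher in trained males had a median log2 fold change of 0.32 in trained males, 0.21 in trained females and 0.14 in sedentary females. For the 1405 called lower the medians were −0.24, −0.20 and −0.13 in the same order. Across all 16913 genes, which are not independent, the fold changes of trained females correlated with r = 0.47 with those of sedentary females and with r = 0.564 with those of trained males.

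The fold changes of the leading genes are set side by side for the 3 comparisons. Tnnt2 differed by 1.57 ± 0.07 in trained females, 1.71 ± 0.07 in sedentary females and 1.43 ± 0.07 in trained males. Myl1 differed by 1.79 ± 0.19, 1.63 ± 0.20 and 1.90 ± 0.20 and Epdr1 by 0.87 ± 0.07, 0.79 ± 0.07 and 0.76 ± 0.07, in that order. Kcnip2 changed by −0.73 ± 0.10, −0.64 ± 0.10 and −0.58 ± 0.10. The fuel lists had larger median falls in trained than in sedentary females. For fatty acid use the medians were −0.27 in trained females (30 of 42 lower), −0.10 in sedentary females (6 lower) and −0.11 in trained males (14 lower). For pyruvate oxidation and the tricarboxylic acid cycle they were −0.21, −0.11 and −0.13, and for branched-chain amino acids and ketones −0.24, −0.16 and −0.19. Macrophage markers had 13 higher in trained females, 0 in sedentary females and 12 in trained males, and collagens had 7, 0 and 4. These differences between list medians and counts were not tested.

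The difference between the comparisons was tested per gene. The transgene effect in trained minus that in sedentary females gave 0 called genes in edgeR, with 1093 at an unadjusted p under 0.05 where 846 would fall by chance, and 0 in DESeq2 and in limma voom. Trained females minus trained males gave 0 in edgeR (910 at an unadjusted p under 0.05), 0 in DESeq2 and 1 in limma voom, Zfp97. Lipe changed by −0.46 ± 0.08 in trained females and by −0.07 ± 0.08 in sedentary females, a difference of −0.38 ± 0.11 (SE, adjusted p by edgeR 0.73). Pnpla2 differed between these by −0.27 ± 0.09 (edgeR adjusted p 0.744) and Atp2a2 by −0.16 ± 0.08 (adjusted p 0.773). The counts of called genes and of list members therefore differ between trained and sedentary females without any single gene passing the test of that difference.

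**Figure D5:**
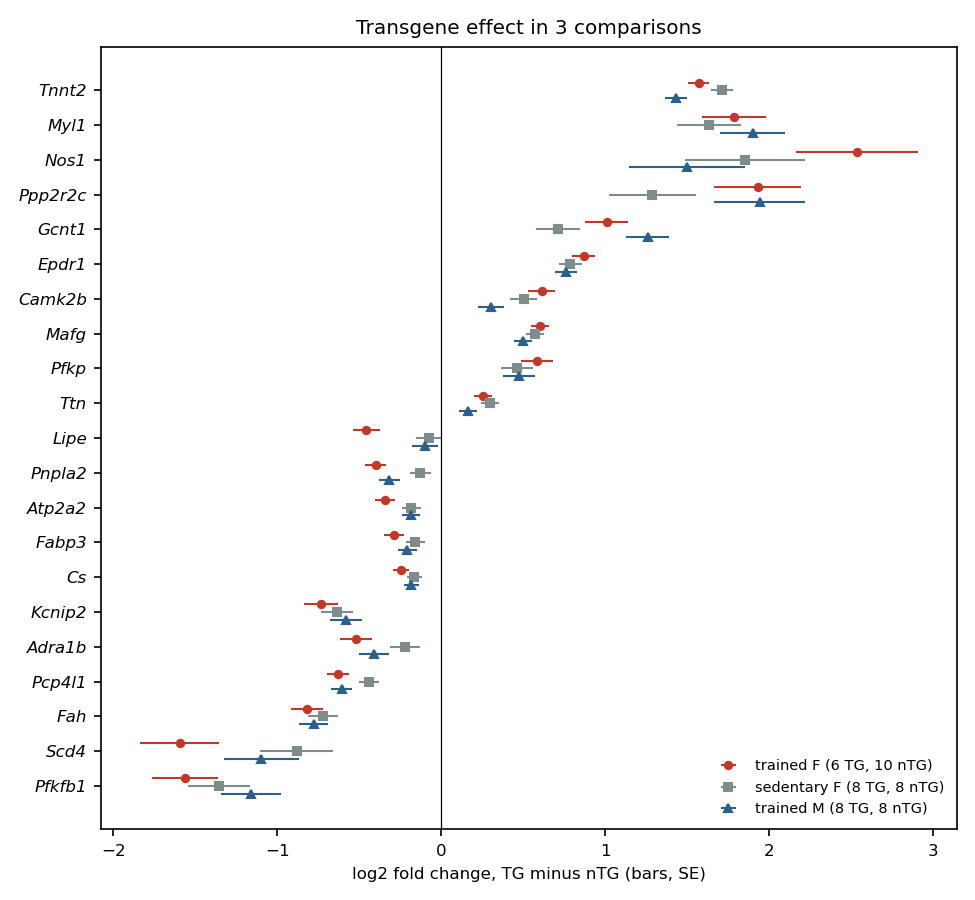
Log2 fold change, TG minus nTG, with its SE, of 21 genes in trained females (red circles), sedentary females (grey squares) and trained males (blue triangles). Tnnt2, Myl1 and Epdr1 lie close together in the 3 comparisons, and Lipe is near 0 in sedentary females and in trained males but at −0.46 in trained females.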

How the data were processed

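Bulk RNA sequencing of rRNA-depleted mouse heart RNA gave the deposited gene table of read counts and the deposited lncRNA table of expected counts (45 of 3787 rows hold fractions), both used as the authors provided them. Per the submitters' processing notes the tools were cutadapt 2.3, FastQC 0.11.8, MultiQC 1.7, STAR 2.7.8a and RSEM 1.3.3 with GRCm38/mm10, with roles not stated. Annotation and strand setting are not given in the sources used here. Columns of the lncRNA table were paired with gene columns by correlation of log2(CPM + 0.5), and 0 columns were left unmapped.

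All 64 libraries and 16913 genes (smallest mean 10.5 counts, so low genes were absent from the table) entered 1 edgeR 4.0.16 quasi-likelihood fit in R 4.3.3, with TMM scaling, 1 term per group and Benjamini-Hochberg adjustment over all genes. Errors of log2 fold changes are SE. DESeq2 1.42.0, limma 3.58.1 (voom), other scalings, filters, subsets and left-out libraries were alternatives. In data simulated for this comparison, 87% of 200 genes changed by a log2 of 1 were recovered (179 calls, 5 false) and 63.5% at 0.5 (131 calls, 4 false). P-values measure the spread between libraries labelled as biological replicates.

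Named genes are the 15 rising and 15 falling with the smallest p, the 5 of each with the largest change at a mean of at least 50 counts, and up to 3 of each direction per list, leaving out clone names and pseudogenes, and some genes that meet this rule are not reported here. Genes outside this rule were named after their values were seen. Members and lists were chosen with earlier results of these data known. GENCODE M21 matched 16879 gene IDs, and RefSeq promoters matched 104 of the named genes.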

Additional observations from a re-analysis of the deposited data

Results flagged for a closer look

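Among 282 groups of named genes and summed markers, 23 held a library far from the rest by Dixon's criterion, where chance gives about 14.1, since it marks about 1 in 20 groups. TG replicate 3 and nTG replicate 4 accounted for 7 each and nTG replicates 2 and 5 for 2 each.

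TG replicate 3 was low for Pfkfb1 at 1.71 CPM, against 2.5 to 2.94 in the other TG libraries. It was high for Ivd at 293.0 CPM (others 264 to 274), Tnc at 14.1 CPM (3.99 to 6.35) and Hmox1 at 15.5 CPM (6.35 to 9.7). It was also high for Srxn1 at 30.2 CPM (18.1 to 22.3), Igfbp4 at 206.9 CPM (149 to 165) and summed lymphocyte markers at 37.2 CPM (11.2 to 15.2).

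NTG replicate 4 was low for Limch1 at 259.5 CPM (others 291 to 319), Map1lc3b at 130.7 CPM (145 to 162) and Idh2 at 1263 CPM (1565 to 1839). It was also low for Atp5b at 3864 CPM (4292 to 4750), Akt1 at 262.0 CPM (307 to 331) and Akt2 at 214.3 CPM (236 to 254.5). Its summed epicardial and mesothelial markers were high at 25.6 CPM (15.9 to 20.5).

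NTG replicate 2 was high for Nos1 at 2.81 CPM (others 0.555 to 0.998) and Hmox1 at 9.8 CPM (5.43 to 7.68). NTG replicate 5 was high for Col4a5 at 53.1 CPM (41.5 to 47.2) and for summed fibroblast markers at 3048 CPM (2222 to 2654). TG replicates 1 and 6 and nTG replicates 6, 7 and 9 had 1 each. Bend6 was at 1.62 CPM in TG replicate 1 (1.83 to 1.96) and Aars at 74.0 CPM in TG replicate 6 (79.7 to 82.8). Cs was at 1429 CPM in nTG replicate 6 (1186 to 1309), summed nerve and Schwann markers at 37.6 CPM in nTG replicate 7 (23.8 to 30.7), and Egr2 at 1.99 CPM in nTG replicate 9 (0.87 to 1.45).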

How the results depend on the processing

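The count of 2503 called genes was 2579 with DESeq2 (2389 shared), 3586 with limma voom, 2408 with RLE size factors, 2358 with upper-quartile scaling, 2351 with TMM scaling without mitochondrially encoded genes and Tnnt2, and 2262 among genes with a mean of 50 counts or more. Limma voom called 1454 genes higher, and upper-quartile scaling called 1045 lower. Fits of the 16 libraries, the 32 female libraries and the 32 trained libraries (the last chosen after seeing the data) called 2467, 2210 and 2576. Leaving out each library in turn gave 1922 to 2800 calls, 687 to 1049 higher and 1125 to 1751 lower, and a Tnnt2 log2 fold change of 1.49 to 1.62. The tests of a difference from sedentary females or trained males gave 0 calls under the alternatives run, except for Zfp97 against males with limma voom (1 call) and without TG replicate 6 (range 0 to 1 over left-out libraries).

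Replicate numbers did not pair the libraries. Deviations of libraries with the same number correlated at r of −0.103 to 0.0721, and each TG library correlated better with another number. A fit with the number as a replicate block called 1227 genes, 497 higher and 730 lower, and 22 of 124 named genes besides Tnnt2 were not called in it. In that fit nTG replicates 7 to 10 shared their number with no TG library and so added nothing to the estimated difference.

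Of those 124 genes, 98 kept their call with each library left out, 19 lost it without TG replicate 3 and 14 without TG replicate 6. None changed direction except when gene columns were taken by name, which gave 0 calls, 0 higher and 0 lower, with 455 genes at an unadjusted p under 0.05 in edgeR and a Tnnt2 log2 fold change of 0.024 (adjusted p 1.0). By name, these log2 fold changes had the opposite sign: Thap1 −0.01003, Acad11 0.02925, Mrpl18 0.009806, Pfkfb1 0.1802, Ttc7 0.03515, Fitm2 0.06125, Limch1 0.01916, Entpd5 0.1326, Celsr1 −0.1199, Map1lc3b 0.01216, Nos1 −0.1991, Abcc9 0.006978, Mccc2 0.005711, Aldh6a1 0.05482, Pfkp −0.06172, Pink1 0.08192, Dlat 0.02888, Mybpc2 −0.07708, Cacng6 0.2396, Sirt3 0.002685, Rcan2 0.008001, Prdx2 0.01377, Fabp3 0.0179, Ctsd 0.005119, Lamc1 −0.01315, Ndufb7 0.009794, Atp5a1 0.02686, Ttn −0.03244, Mb 0.0007137, Slc7a1 0.01886, Scn10a 0.008439, Egr3 −0.448, Hspa1b −0.2775, Tsc2 0.07483, Col6a3 −0.1295, Tnni2 −0.04427, Tnc −0.08829, Mmp2 −0.007099, Col4a5 −0.01329, Ier5 −0.1613, Egr2 −0.1561, Vgll4 −0.1293, Axl −0.04611, Top2a −0.2071, Irf8 −0.09713, Birc5 −0.2235 and Oas2 −0.122.

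The results rest on the match between the tables, on 6 TG libraries, and on bulk RNA, in which genes absent from the table were not tested.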
